A study of Mus musculus with 11 samples.

Results

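The nuclear genes for subunits of the oxidative phosphorylation complexes were examined in mouse bone marrow-derived macrophages treated with CYR61. They were taken by symbol from the protein-coding genes of the count table: Nduf genes for complex I, Sdha to Sdhd for complex II, Uqcr genes and Cyc1 for complex III, Cox4 to Cox8 genes for complex IV and Atp5 genes for complex V. The rule found 88 genes among 55487 gene IDs, of which 21936 were protein-coding, with 38 in complex I, 4 in complex II, 9 in complex III, 19 in complex IV and 18 in complex V. Ndufa4 stands with complex I by its symbol, although its product is now counted with complex IV.

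The study compared macrophages given 0.5 µg/ml CYR61 for 24 h (4 libraries) with control macrophages at 0 µg/ml (7 libraries). All cells came from the bone marrow of C57BL/6J mice aged 2 to 5 months, cultured for 5 to 6 days with 10% CMG-conditioned medium and then kept at 2%. CYR61, also named CCN1, is a secreted matricellular protein that binds integrins. No label states a vehicle for the control cells. Nor does one tie a library to an animal or a culture, and the p-values below therefore rest on the variation among these libraries alone, part of which may be technical.

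Oxidative phosphorylation takes place in the inner mitochondrial membrane. Complexes I and II pass electrons from NADH and succinate to ubiquinone, complex III passes them to cytochrome c and complex IV passes them to oxygen, while complexes I, III and IV pump protons that drive ATP synthesis by complex V. Most subunits are encoded in the nucleus and imported, a smaller core is encoded in mitochondrial DNA, and in macrophages the use of this pathway is known to differ between activation states.

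Libraries held 17390272 to 20760322 estimated counts with CYR61 and 14912123 to 21047654 in control, where control replicate 1 was the smallest. The subunit genes took 0.425 to 0.434% of these counts with CYR61 and 0.397 to 0.434% in control. CYR61 replicate 4 held 2.47% of its counts in ribosomal RNA genes, against 0.26 to 0.591% in the other CYR61 libraries and 0.286 to 0.884% in control. CYR61 replicate 1 held 0.953% in mitochondrially encoded genes, against 1.32 to 1.39% in the other CYR61 libraries and 1.24 to 1.504% in control. All 9 macrophage markers averaged at least 1 CPM (a library's counts scaled to a common total and then by TMM factors, which use the trimmed mean of log ratios between libraries), and their sum was 25162 to 27460 CPM with CYR61 and 22754 to 24119 CPM in control. The 8 neutrophil markers summed to 1.61 to 2.12 CPM with CYR61 and 0.841 to 1.39 CPM in control, with Ly6g at 0 in all libraries. Of 4 endothelial markers 1 averaged at least 1 CPM, and they summed to 4.44 to 5.54 CPM with CYR61 and 4.88 to 6.68 CPM in control. No marker on the lists for dendritic cells, B cells, T or NK cells, mast cells or basophils, erythroid cells and stroma averaged 1 CPM. The part of these differences between libraries in the results that follow was not tested.

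Of the 88 genes, 81 had enough counts for the test, and 13 of them (16%) were higher with CYR61 at an adjusted p under 0.05 (edgeR quasi-likelihood test, Benjamini-Hochberg over 15135 genes). Among all genes tested, 5.33% were called higher and 2.63% lower. No subunit gene was called lower, and at an unadjusted p under 0.05 there were 32 higher and 0 lower. DESeq2 and limma-voom called 16 and 12 subunit genes higher, and each called 0 lower. Of all 15135 genes they called 859 and 791 higher. The 13 genes were Ndufs3 in complex I, Sdhb in complex II, Cyc1 and Uqcrq in complex III, Cox5a, Cox5b, Cox6a1, Cox7b and Cox8a in complex IV, and Atp5a1, Atp5b, Atp5g3 and Atp5o in complex V. Their rises were small, at 1.09-fold to 1.17-fold.

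Over the 81 genes the median log2 fold change was 0.08 (quartiles 0.03 and 0.14), against -0.0076 over all genes tested. Estimates were above 0 for 65 subunit genes (80.2%), compared with 47.5% of all genes. Subunit genes are well expressed, with a median of 39.9 CPM against 15.0 CPM for all genes tested, and higher counts make small changes easier to call. Among protein-coding genes averaging at least 10 CPM, 8.02% were called higher, while 13 of the 76 subunit genes at that level (17.1%) were. In these 76 genes the coefficient of variation among control libraries had a median of 5.66% and ran from 2.25 to 10.4%. In bulk RNA, fewer cells that express a gene and less of its RNA per cell cannot be told apart.

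The 4 CYR61 libraries all lay above the 7 control libraries for 9 subunit genes (11.1% of 81), compared with 4.65% of all genes tested. These were Ndufs3, Ndufs7, Ndufb10, Cyc1, Cox5a, Cox5b, Cox6a1, Atp5a1 and Atp5b, of which 7 were also called. No subunit gene had all CYR61 libraries below all controls, compared with 2.5% of all genes. By complex, 1 of 37 genes tested was called higher in complex I, 1 of 4 in complex II, 2 of 9 in complex III, 5 of 14 in complex IV and 4 of 17 in complex V. The share called in complex I, 2.7%, was below that of all genes, but other measures of complex I were not. At an unadjusted edgeR p under 0.05, 12 of its 37 genes were higher and 0 lower, against 1692 higher and 1402 lower of 15135 genes. All CYR61 libraries lay above all controls for 3 of the 37 (8.11%), and 28 estimates were above 0. The median log2 fold changes were 0.07, 0.10, 0.08, 0.10 and 0.08 for complexes I to V, and 0.03, 0.10, 0.05, 0.04 and 0.05 with trends by GC content and transcript length corrected.

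Scaling by library size alone, without TMM factors, gave 5 calls, and the median log2 fold change became 0.04 for the subunit genes and -0.05 for all genes. The TMM factors themselves ran from 0.971 to 0.993 with CYR61 and from 1.00 to 1.02 in control. Under that scaling 529 genes of the whole table were higher and 938 lower, compared with 806 higher and 398 lower under TMM. A correction for trends with GC content and transcript length gave 10 calls, 9 of them among the 13 and Sdha besides, and a median of 0.04. With that correction 903 genes of the whole table were called higher. The subunit transcripts are short, with a median of 809 bases against 2618 for all genes tested. Without CYR61 replicate 2, 3 or 4 there were 6, 8 and 8 calls, all among the 13, while the genes of the whole table called higher numbered 583, 616 and 692.

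**Figure D1:**
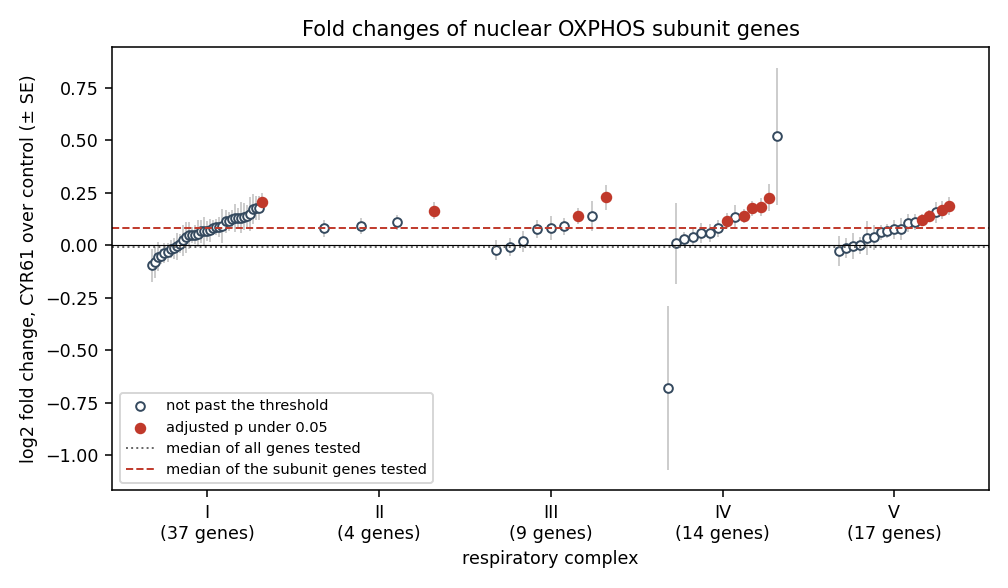
Log2 fold change of CYR61 over control for each of the 81 tested subunit genes, grouped by complex I to V, with bars of ± SE and filled points for the 13 called genes; dashed and dotted lines give the medians of the subunit genes and of all genes tested. Estimates lie above 0 for 65 genes, and both extremes, -0.68 for Cox6b2 and 0.52 for Cox5b-ps, belong to genes under 1 CPM.

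The promoters of 6 of the called genes are shown because they carry the motifs searched for, or, for Atp5b and Cox7b, none of them. The sequences are from RefSeq (GRCm38.p6), run 5′ to 3′ in the direction of the gene from 170 bases before to 20 bases after its start, and have motif matches in capitals: CCGGAAG, or CTTCCGG on the other strand, for GABPA, and for NRF1 a palindrome of 10 letters, which is the first run of capitals in Cox6a1. NRF1, GABPA and YY1 are transcription factors known to bind promoters of many respiratory chain genes.
Ndufs3, chr2:90904702-90904891, minus strand: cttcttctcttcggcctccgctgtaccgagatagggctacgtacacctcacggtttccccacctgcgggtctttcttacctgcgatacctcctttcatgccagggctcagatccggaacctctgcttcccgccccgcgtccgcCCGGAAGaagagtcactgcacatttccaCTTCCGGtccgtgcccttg
Sdhb, chr4:140961101-140961290, plus strand: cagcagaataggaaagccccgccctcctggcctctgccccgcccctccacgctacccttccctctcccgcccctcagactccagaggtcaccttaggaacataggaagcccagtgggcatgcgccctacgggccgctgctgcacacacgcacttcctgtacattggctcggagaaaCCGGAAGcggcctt
Cox6a1, chr5:115348939-115349128, minus strand: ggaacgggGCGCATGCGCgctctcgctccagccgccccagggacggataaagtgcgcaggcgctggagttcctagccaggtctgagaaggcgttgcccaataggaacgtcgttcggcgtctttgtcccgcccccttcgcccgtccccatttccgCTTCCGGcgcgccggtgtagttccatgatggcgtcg
Cox8a, chr19:7217597-7217786, minus strand: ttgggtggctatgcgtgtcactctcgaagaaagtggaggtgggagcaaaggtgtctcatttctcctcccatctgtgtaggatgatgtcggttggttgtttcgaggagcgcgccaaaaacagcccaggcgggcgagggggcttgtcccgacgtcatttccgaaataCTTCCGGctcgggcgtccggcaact
Atp5b, chr10:128083137-128083326, plus strand: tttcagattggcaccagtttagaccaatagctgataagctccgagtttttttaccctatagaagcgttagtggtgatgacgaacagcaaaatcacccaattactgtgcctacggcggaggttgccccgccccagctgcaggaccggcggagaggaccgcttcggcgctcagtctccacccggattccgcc
Cox7b, chrX:106015530-106015719, plus strand: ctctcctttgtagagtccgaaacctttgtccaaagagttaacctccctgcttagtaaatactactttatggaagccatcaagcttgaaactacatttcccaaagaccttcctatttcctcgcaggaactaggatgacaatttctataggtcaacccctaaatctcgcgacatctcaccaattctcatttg

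Ndufs3 holds the GABPA letters on both strands, around its start, and Cox6a1 holds both an NRF1 and a GABPA match. In Sdhb and Cox8a a single GABPA match lies within 13 bases of the start. A promoter was found for 66 of the 81 tested genes, and a window from 250 bases before to 50 after the start was searched on both strands. The NRF1 letters stood in 5 of the 66 (7.58%), compared with 2.49% of 9471 tested protein-coding genes. The GABPA letters stood in 17 (25.8%), compared with 21.2%, and the YY1 letters AAGATGGC (GCCATCTT on the other strand) in 10 (15.2%), compared with 5.55%. Of the 10 called genes with a promoter, 1 held NRF1, 4 held GABPA and 0 held YY1 letters, and of the 56 that were not called 4, 13 and 10 did. These are matches of letters in one window and were not tested.

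In complex I, which takes electrons from NADH, 1 of 37 genes rose (2.7%, against 5.33% of all genes tested). Ndufs3, a core subunit of the arm that reaches into the matrix, had 37.6, 36.9, 35.5 and 34.0 CPM with CYR61, against a lowest value of 29.0, a median of 31.3 and a highest of 32.8 CPM in control. Every CYR61 library was above every control library. The means were 36.0 ± 1.61 CPM with CYR61 (SD, n = 4) and 31.2 ± 1.28 CPM in control (SD, n = 7), a log2 fold change of 0.21 (SE 0.043, edgeR adjusted p = 0.00445).

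Other core subunits did not pass. Ndufs1, which carries iron-sulfur clusters, had 42.6, 44.9, 45.8 and 46.3 CPM with CYR61, against 45.1, 46.9 and 47.9 CPM as the lowest, median and highest control. Its groups overlapped, with a log2 fold change of -0.05 (SE 0.035, edgeR adjusted p = 0.433). Ndufv1, the subunit that binds NADH and FMN, had 39.1, 39.1, 40.4 and 40.6 CPM with CYR61 and 35.1, 37.2 and 41.7 CPM as the lowest, median and highest control. The CYR61 libraries lay inside the control range (log2 fold change 0.07, SE 0.047, edgeR adjusted p = 0.445).

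Next to the threshold stood the accessory subunits Ndufc2 and Ndufv3. Ndufc2 averaged 19.6 ± 0.996 CPM with CYR61 (n = 4) and 17.3 ± 1.10 CPM in control (n = 7), with an edgeR adjusted p of 0.0672. Ndufv3 averaged 38.4 ± 0.490 CPM with CYR61 and 33.9 ± 3.03 CPM in control, with an edgeR adjusted p of 0.0693. For both the estimate was 0.18 on the log2 scale. Ndufc2 passed without control replicate 4 (adjusted p = 0.0396), and Ndufv3 passed without control replicate 6 or 7 (adjusted p = 0.0234 and 0.0332). On all 11 libraries Ndufv3 also passed with DESeq2 (adjusted p = 0.0485) and with limma-voom weighted by library quality (adjusted p = 0.0415). It did not pass with limma-voom alone.

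A pair of genes, chosen after their values were seen, had separate groups without passing. Ndufs7, a core iron-sulfur subunit, had 43.0, 43.6, 43.8 and 43.0 CPM with CYR61, against 35.2, 40.6 and 41.6 CPM as the lowest, median and highest control (log2 fold change 0.12, edgeR adjusted p = 0.0896). Ndufb10, of the membrane arm, had 42.2, 42.6, 41.8 and 43.4 CPM with CYR61, against 37.5, 40.2 and 41.5 CPM as the lowest, median and highest control (log2 fold change 0.08, edgeR adjusted p = 0.183). Over all 36 genes of complex I that were not called, estimates ran from -0.10 to 0.18, and 27 were above 0.

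Complex II oxidises succinate and is also an enzyme of the tricarboxylic acid cycle, and it has 4 subunits, all encoded in the nucleus. Sdhb, the iron-sulfur subunit, had 86.3, 86.1, 80.4 and 84.9 CPM with CYR61, against 69.1, 75.4 and 81.0 CPM as the lowest, median and highest control. The groups met at 1 library each: 3 CYR61 libraries were above all controls and 6 controls were below all CYR61 libraries. Sdhb averaged 84.4 ± 2.75 CPM with CYR61 (n = 4) and 75.2 ± 4.27 CPM in control (n = 7), a log2 fold change of 0.17 (SE 0.041, edgeR adjusted p = 0.0157). Without CYR61 replicate 2 the adjusted p was 0.059.

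The other complex II genes had estimates above 0 that did not pass. Sdha, the flavoprotein that binds succinate, had 163, 179, 185 and 186 CPM with CYR61, against 159.8, 166 and 171 CPM as the lowest, median and highest control. Its CYR61 replicate 1 lay within the control range (log2 fold change 0.11, SE 0.036, edgeR adjusted p = 0.072). Sdhc, a membrane anchor, averaged 77.0 ± 2.29 CPM with CYR61 and 72.1 ± 3.72 CPM in control (edgeR adjusted p = 0.174). Sdhd, the other anchor, averaged 58.0 ± 1.98 CPM with CYR61 and 54.7 ± 3.11 CPM in control (edgeR adjusted p = 0.301). Sdha passed without CYR61 replicate 1 (adjusted p = 0.00329) and Sdhc without control replicate 7 (adjusted p = 0.0454). On all 11 libraries Sdha also passed with DESeq2 (adjusted p = 0.0355) and with limma-voom weighted by library quality (adjusted p = 0.0089). It did not pass with limma-voom alone.

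Complex III moves electrons from ubiquinol to cytochrome c, and 2 of its 9 genes rose (22.2%, against 5.33% of all genes tested). Cyc1, the cytochrome c1 subunit, had 46.4, 46.5, 46.5 and 48.4 CPM with CYR61, against 40.6, 42.9 and 45.8 CPM as the lowest, median and highest control. The groups did not overlap, and the means were 46.9 ± 0.95 CPM with CYR61 (n = 4) and 42.6 ± 1.71 CPM in control (n = 7). The log2 fold change was 0.14 (SE 0.037, edgeR adjusted p = 0.0247). The adjusted p was 0.0568, 0.056 and 0.0847 without CYR61 replicate 2, 3 or 4, and 0.0535 without control replicate 5.

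Uqcrq, a small subunit bound near cytochrome b, had 43.7, 45.02, 45.02 and 42.4 CPM with CYR61, against 33.5, 37.5 and 43.3 CPM as the lowest, median and highest control. The highest control overlapped the lowest CYR61 library. Its log2 fold change of 0.23 was the largest among the 13 called genes (SE 0.061, edgeR adjusted p = 0.0252). It was 0.0817 and 0.0761 without CYR61 replicate 2 or 3 and 0.0529 without control replicate 5.

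The core subunits Uqcrc1 and Uqcrfs1 were not called. Uqcrc1 averaged 122 ± 5.04 CPM with CYR61 and 114 ± 6.46 CPM in control (edgeR adjusted p = 0.222). Uqcrfs1, the Rieske iron-sulfur protein, averaged 44.8 ± 3.04 CPM with CYR61 and 42.4 ± 1.54 CPM in control (edgeR adjusted p = 0.347). Uqcrh, the hinge protein, averaged 51.0 ± 2.06 CPM with CYR61 and 51.8 ± 3.49 CPM in control, with groups that overlapped throughout (edgeR adjusted p = 0.847).

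Complex IV, cytochrome c oxidase, had 5 of 14 tested genes called higher (35.7%, against 5.33% of all genes tested). Its nuclear subunits surround a catalytic core encoded in mitochondrial DNA. Cox5a, which lies on the matrix side, had 64.4, 70.3, 68.0 and 65.9 CPM with CYR61, against 55.9, 60.04 and 62.3 CPM as the lowest, median and highest control. The groups did not overlap, and the log2 fold change was 0.18 (SE 0.037, edgeR adjusted p = 0.00492). Cox5b, a zinc-binding subunit, had 70.7, 69.6, 70.8 and 74.0 CPM with CYR61, against 58.2, 62.2 and 68.1 CPM as the lowest, median and highest control. Its groups also stood apart (log2 fold change 0.18, SE 0.043, edgeR adjusted p = 0.0128). Without CYR61 replicate 4 the adjusted p of Cox5b was 0.0508.

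Cox6a1, the isoform found outside heart and skeletal muscle, had nearly equal values in the CYR61 libraries, at 111 ± 0.375 CPM (n = 4), against 102 ± 4.95 CPM in control (n = 7). Every CYR61 library was above the highest control of 109 CPM, and the log2 fold change of 0.12 passed narrowly (SE 0.035, edgeR adjusted p = 0.0484). The call of Cox6a1 ended without any 1 of the 4 CYR61 libraries or of control replicates 1 to 5, with adjusted p of 0.0651 to 0.109. Cox8a, the corresponding isoform of the smallest subunit, had 90.4, 98.5, 92.3 and 91.4 CPM with CYR61, against 80.7, 83.7 and 90.4 CPM as the lowest, median and highest control. Its lowest CYR61 library and its highest control were almost level (log2 fold change 0.14, SE 0.035, edgeR adjusted p = 0.0165). Without CYR61 replicate 2 the adjusted p of Cox8a was 0.0902.

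Cox7b had 39.1, 45.3, 47.1 and 52.6 CPM with CYR61, against 33.9, 40.2 and 40.6 CPM as the lowest, median and highest control. In CYR61 replicate 1 it lay within the control range and in the other 3 above it (log2 fold change 0.23, SE 0.063, edgeR adjusted p = 0.0326). The adjusted p of Cox7b was 0.0708, 0.0947 and 0.144 without CYR61 replicate 2, 3 or 4, and 0.0532 without control replicate 5. Cox4i1, the main isoform of the largest nuclear subunit, averaged 194 ± 1.33 CPM with CYR61 and 188 ± 10.3 CPM in control, and its CYR61 libraries lay inside the control range (log2 fold change 0.04, SE 0.038, edgeR adjusted p = 0.6). Its estimate was -0.0028 with library size alone and -0.0145 with the correction for GC content and length.

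Complex V, the ATP synthase, had 4 of 17 tested genes called higher (23.5%, against 5.33% of all genes tested). Atp5a1 and Atp5b encode the alpha and beta subunits that form the catalytic head. Atp5a1 had 357, 351, 349 and 351 CPM with CYR61, against 304, 326 and 336 CPM as the lowest, median and highest control. Atp5b had 300.0, 304, 302 and 313 CPM with CYR61, against 264, 279 and 289 CPM as the lowest, median and highest control. Neither gene's groups overlapped, and the log2 fold changes were 0.12 for Atp5a1 (SE 0.030, edgeR adjusted p = 0.0155) and 0.14 for Atp5b (SE 0.030, edgeR adjusted p = 0.00591).

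Atp5o, of the stalk that holds the head, had 58.3, 66.1, 65.7 and 67.9 CPM with CYR61, against 53.8, 58.3 and 60.01 CPM as the lowest, median and highest control. CYR61 replicate 1 sat inside the control range and the other 3 above it (log2 fold change 0.17, SE 0.043, edgeR adjusted p = 0.0192). Without CYR61 replicate 2, 3 or 4 the adjusted p was 0.0767, 0.0651 and 0.0832. A second gene ID with the symbol Atp5o had 0 counts in all libraries.

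Atp5g1, Atp5g2 and Atp5g3 encode an identical mature subunit c, which forms the rotating ring, and only Atp5g3 of these 3 was called. Atp5g3 had 60.4, 67.2, 66.3 and 70.6 CPM with CYR61, against 54.5, 56.9 and 62.3 CPM as the lowest, median and highest control. Its CYR61 replicate 1 lay inside the control range and the other 3 above it (log2 fold change 0.19, SE 0.043, edgeR adjusted p = 0.00953). Atp5g1 averaged 30.9 ± 1.42 CPM with CYR61 and 31.1 ± 1.83 CPM in control (edgeR adjusted p = 0.925). Atp5g2 averaged 20.9 ± 1.80 CPM with CYR61 and 21.3 ± 2.08 CPM in control (edgeR adjusted p = 0.890).

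**Figure D2:**
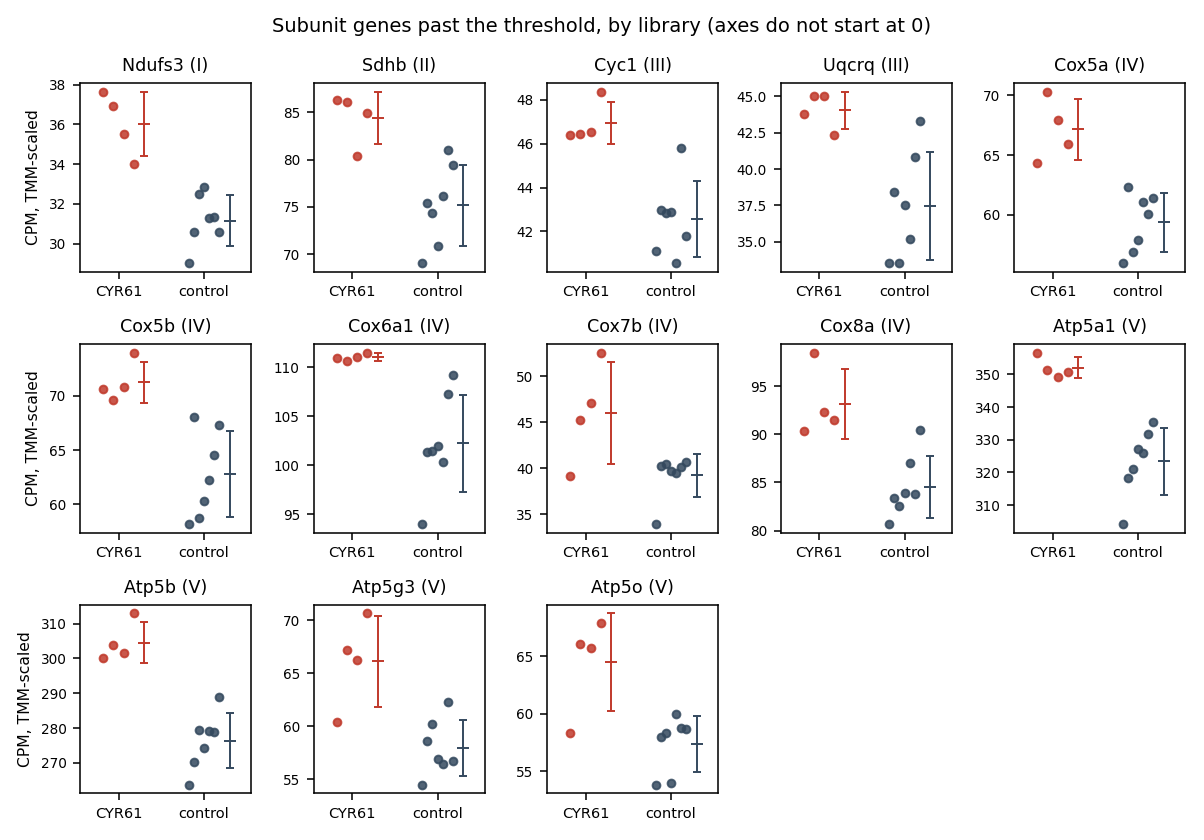
CPM in each library for the 13 called genes, 1 panel a gene, with CYR61 libraries to the left of control libraries and mean ± SD beside the points; the axes do not start at 0. For Ndufs3, Cyc1, Cox5a, Cox5b, Cox6a1, Atp5a1 and Atp5b every CYR61 point lies above every control point.

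The split of counts among the subunit c genes was tested as a share, since a difference between calls is not a test of it. Atp5g3 held 56.0 ± 2.40% of the counts of the 3 genes with CYR61 (SD, n = 4) and 52.5 ± 1.19% in control (n = 7), a difference of 3.50 percentage points (two-sided exact permutation p = 0.00909, adjusted p = 0.0636 over 7 shares). Atp5g1 held 26.2 ± 0.764% with CYR61 and 28.2 ± 1.31% in control (two-sided exact permutation p = 0.0212, adjusted p = 0.0742). Neither passed after adjustment, where the smallest unadjusted p the design allows is 0.00303. Without CYR61 replicate 1 the adjusted p became 0.035 for both. Cox7a2 is the isoform of subunit 7a outside heart and skeletal muscle, and its share was taken over Cox7a1, Cox7a2 and Cox7a2l. Cox7a2 held 21.9 ± 2.07% with CYR61 and 20.6 ± 0.924% in control (exact permutation adjusted p = 0.223). Without CYR61 replicate 1 that adjusted p was 0.035 too. Cox7a2l held most of the rest, at 77.3% with CYR61 and 78.6% in control. All shares are of counts not scaled by length, so they compare groups and not genes.

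Isoforms tied to particular tissues or to low oxygen were at or near 0. Cox7b2 and Cox8c had 0 counts in every library, where 3 counts, the limit that a count of 0 allows, equal 0.14 to 0.197 CPM by library. Cox4i2, the lung isoform induced by low oxygen, had 0 counts in all CYR61 libraries and 0 to 2 in control. Cox6a2, the heart and muscle isoform, had 1 to 9 counts with CYR61 and 1 to 7 in control. Cox8b had 0 to 3 with CYR61 and 0 to 1 in control, and Ndufa4l2, a target of hypoxia signalling, had 0 to 1 in both groups. These 6 genes and the second Atp5o ID were the 7 that were not tested.

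A few low genes did enter the test. Cox6b2, the testis isoform, had 0.111, 0.345, 0.411 and 0.382 CPM with CYR61, against 0.224, 0.581 and 0.748 CPM as the lowest, median and highest control, from counts of 2 to 7 with CYR61 and 4 to 16 in control. Its log2 fold change of -0.68 had an SE of 0.390 (edgeR adjusted p = 0.354), and without CYR61 replicate 1 the log2 fold change was -0.41. Cox7a1, the muscle isoform, averaged 1.41 CPM with CYR61 and 1.396 CPM in control (edgeR adjusted p = 0.986). Cox5b-ps, a copy of Cox5b that the table types as protein-coding, averaged 0.601 ± 0.170 CPM with CYR61 and 0.421 ± 0.160 CPM in control (edgeR adjusted p = 0.407). Among genes averaging at least 10 CPM, estimates ran from -0.08 to 0.23.

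Levels can be compared between genes only per length, here as CPM per kb of 1 principal transcript of each gene. That transcript had 4715 bases for Atp5g1 and 4371 for Ndufb2, against a median of 809 for the subunit genes tested. Which transcripts these cells used was not examined, so the level and rank of a gene depend on the transcript chosen. Cox4i1 stood first among all subunit genes, at 253 CPM per kb with CYR61 and 246 in control, followed by Cox6a1 at 194 with CYR61 and 179 in control. Cox8a reached 169 CPM per kb with CYR61 and 154 in control, and Atp5b 159 with CYR61 and 144 in control. Within complex I Ndufb8 was highest, at 86.4 CPM per kb with CYR61 and 81.3 in control, and it was not called (edgeR adjusted p = 0.334). In complex III Uqcr11 was at 95.6 CPM per kb with CYR61 and 90.0 in control, and Uqcrh at 93.3 with CYR61 and 94.7 in control. In complex II Sdhb was at 73.9 with CYR61 and 65.8 in control.

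**Figure D3:**
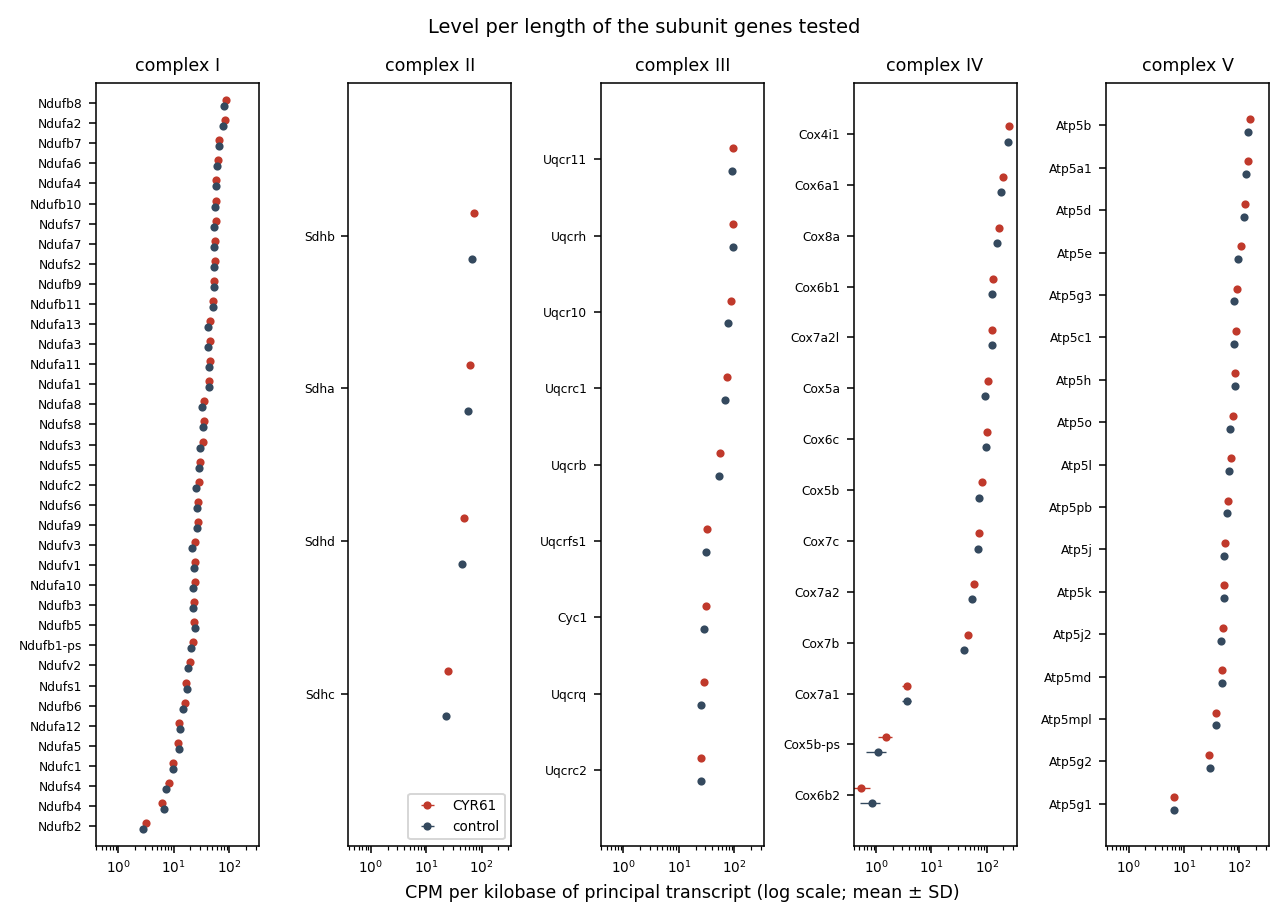
Mean CPM per kb of transcript for the tested subunit genes by complex, with ± SD bars, CYR61 drawn above control for each gene, on a log axis. Cox4i1 is highest in both groups, and Cox7a1, Cox5b-ps and Cox6b2 are the 3 lowest of complex IV, at or under 3.59 CPM per kb in both groups.

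The summed CPM of each complex was set beside the single genes, with no test, since the sum is a score over a list chosen with results known. Complex V summed to 1409, 1450.0, 1428 and 1462 CPM with CYR61, against 1262, 1336 and 1387 CPM as the lowest, median and highest control, and its groups did not overlap. It was 7.69% higher by the means. Atp5a1 and Atp5b alone averaged 352 and 305 CPM with CYR61, against 323 and 276 CPM in control, so this sum partly restates these genes. Of the 17 complex V estimates, 4 were below 0. The complex II sum was 8.29% higher, the complex IV sum 6.98%, the complex III sum 5.99% and the complex I sum 4.89%, and in each of these some libraries of the groups overlapped. Over complexes I to V the sum was 4407 ± 84.7 CPM with CYR61 (n = 4) and 4132 ± 134 CPM in control (n = 7), with 3 CYR61 libraries above all controls.

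**Figure D4:**
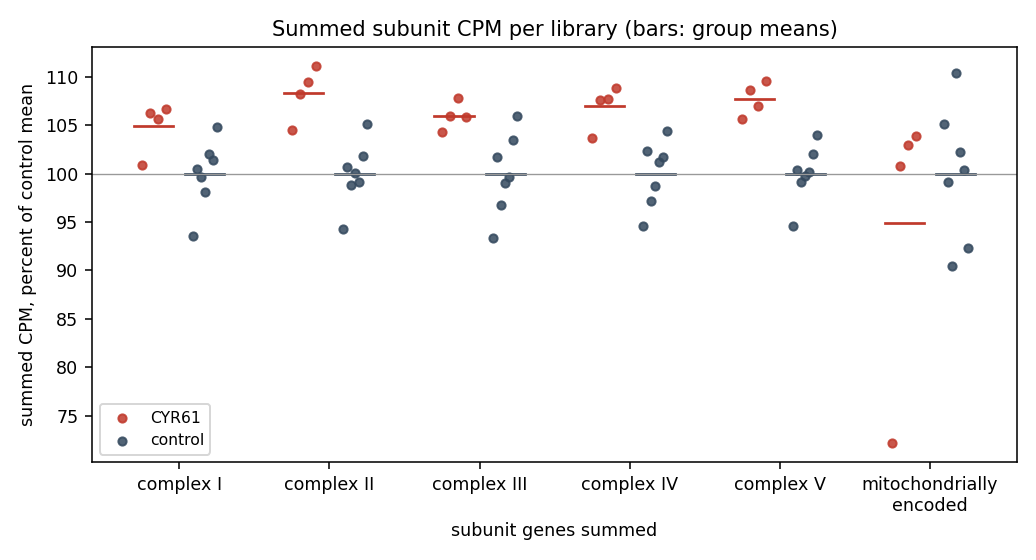
Summed CPM of the tested subunit genes of complexes I to V and of the 13 mitochondrially encoded subunit genes, as a percent of the control mean, with 1 point a library, CYR61 left of control and bars at the group means. For complex V all CYR61 libraries lie above all controls, and for the mitochondrially encoded genes CYR61 replicate 1 lies below all other libraries.

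Libraries of 1 group differed among themselves. Relative to the control mean of each gene, the median log2 value over the 76 genes of at least 10 CPM was 0.02, 0.10, 0.09 and 0.13 in CYR61 replicates 1 to 4. In control replicates it ran from -0.09 in replicate 1 to 0.07 in replicate 7. CYR61 replicate 1, at 0.0212, lay below control replicates 2, 6 and 7, at 0.0224, 0.0251 and 0.0676. The number of the 76 genes above their control mean was 41, 66, 65 and 63 in the CYR61 libraries and 5 to 62 in the control libraries. The 41 genes of CYR61 replicate 1 were fewer than the 50, 46, 51 and 62 of control replicates 2, 5, 6 and 7. CYR61 replicate 1 is the library with few mitochondrially encoded reads. Without it 16 subunit genes were called, while the genes of the whole table called higher numbered 831.

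Of the 13 subunits encoded in mitochondrial DNA, edgeR, DESeq2 and limma-voom each called 0 higher and 1 lower, and at an unadjusted p under 0.05 the counts were also 0 and 1. Of all genes tested, edgeR called 5.33% higher and 2.63% lower. The summed CPM of the 13 subunits was 9478, 13238, 13525 and 13651 with CYR61, against 11881, 13181 and 14509 as the lowest, median and highest control. All 13 had estimates below 0, with a median log2 fold change of -0.11. Without CYR61 replicate 1, 8 of 13 were above 0 and the median was 0.01. mt-Nd6, a subunit of complex I, had 124, 159.5, 169 and 154 CPM with CYR61, against 163, 189 and 213 CPM as the lowest, median and highest control. The groups overlapped at 1 library, and its log2 fold change was -0.32 (SE 0.077, edgeR adjusted p = 0.0153). Without CYR61 replicates 1 and 4 its adjusted p was 0.186. mt-Nd6 lies on the other strand from its neighbours and the labels do not state strandedness, so its reads and antisense reads cannot be told apart.

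Of 48 assembly factors of the complexes, 47 were tested and 2 rose (4.26%, against 5.33% of all genes tested), with a median log2 fold change of 0.02 and 27 estimates above 0. With library size alone 20 were above 0 and the median was -0.02. Foxred1, which helps assemble complex I, averaged 23.5 ± 0.996 CPM with CYR61 and 20.2 ± 0.909 CPM in control (log2 fold change 0.22, edgeR adjusted p = 0.00893). Without CYR61 replicates 1 and 4 its adjusted p was 0.0576. Coa5, needed for complex IV assembly, averaged 104 ± 5.67 CPM with CYR61 and 94.1 ± 2.54 CPM in control (log2 fold change 0.14, edgeR adjusted p = 0.0162). Without CYR61 replicate 2, 3 or 4 the adjusted p of Coa5 was 0.0552, 0.0517 and 0.0832, and with library size alone it was 0.09.

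The tricarboxylic acid cycle supplies NADH and succinate to the chain, and 1 of its 19 genes rose (5.26%, against 5.33% of all genes tested). Cs, citrate synthase, had 169, 178, 169.7 and 177 CPM with CYR61, against 152, 156 and 161.5 CPM as the lowest, median and highest control, with no overlap (log2 fold change 0.14, SE 0.030, edgeR adjusted p = 0.00424). The malate dehydrogenase gene Mdh2 passed without control replicate 7, and the fumarase gene Fh1 without CYR61 replicate 1. On all 11 libraries both passed with limma-voom weighted by library quality (adjusted p = 0.0476 for Mdh2 and 0.0492 for Fh1). Neither passed with DESeq2 or with limma-voom alone. Estimates were above 0 for 18 of the 19, with a median of 0.09, and for 13 with a median of 0.04 under library size alone. The list also holds pyruvate dehydrogenase and pyruvate carboxylase genes and leaves out the 4 complex II genes, which stand among the subunits.

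Of 24 regulators of mitochondrial genes, 23 were tested and none was called by edgeR, DESeq2 or limma-voom, with 2 higher and 1 lower at an unadjusted p under 0.05. With the correction for GC content and length, Lrpprc was called higher (edgeR adjusted p = 0.0221). The median log2 fold change was -0.02. Esrra, a nuclear receptor that activates genes of oxidative metabolism, averaged 41.5 ± 4.14 CPM with CYR61 and 37.8 ± 0.749 CPM in control (edgeR adjusted p = 0.108). Gabpa averaged 38.2 ± 2.52 CPM with CYR61 and 40.9 ± 1.46 CPM in control (edgeR adjusted p = 0.218), and Nrf1 averaged 28.0 ± 1.26 CPM with CYR61 and 29.1 ± 1.12 CPM in control (edgeR adjusted p = 0.544). Ppargc1a, the coactivator known to drive mitochondrial biogenesis in other tissues, had at most 1 count in a library.

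**Figure D5:**
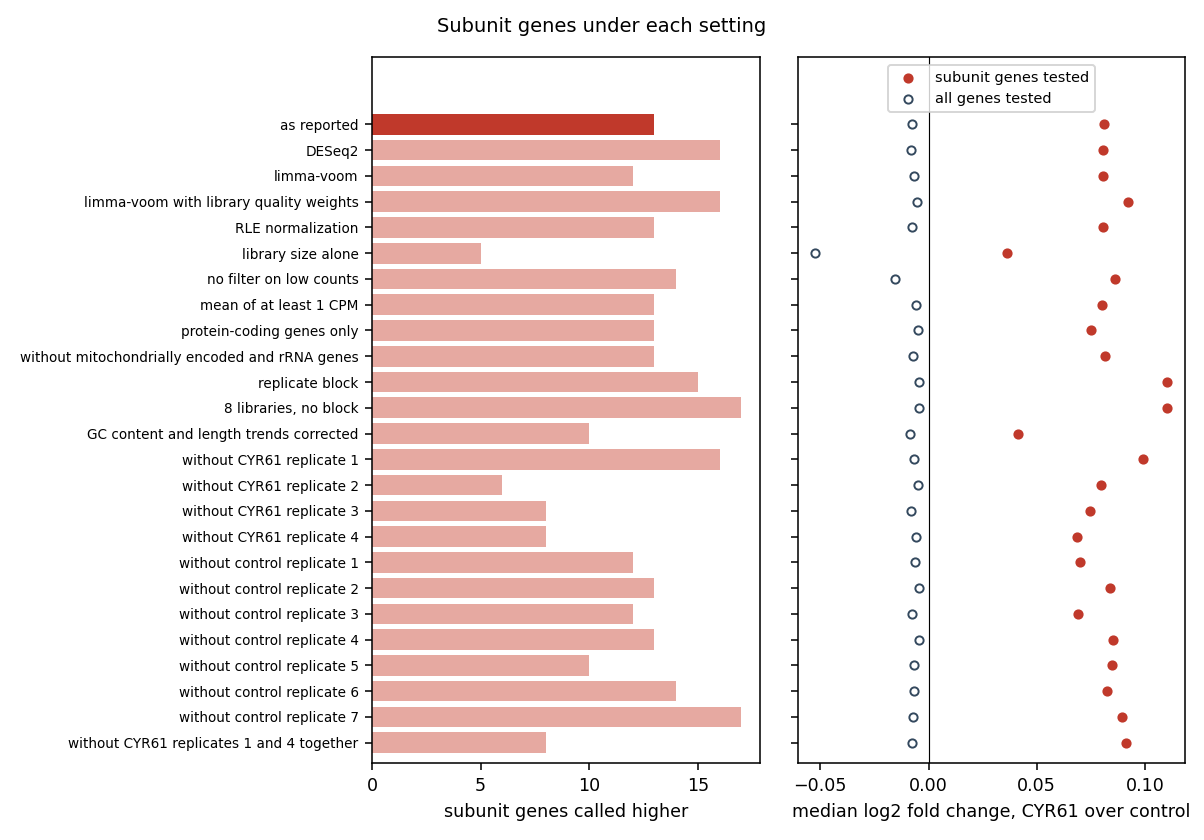
Number of subunit genes called higher (left, bars) and median log2 fold change of the subunit genes and of all genes tested (right, points) under TMM with edgeR and under each of 24 alternatives. The number runs from 5 with library size alone to 17, and the subunit median lies above 0 in each.

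The calls differed in how well they held. Cox5a, Atp5g3 and Atp5b were called in all 24 alternatives, with highest adjusted p of 0.0317, 0.049 and 0.0471. Ndufs3 was lost in 1, Atp5a1 and Cox5b in 2, Sdhb and Cox8a in 3, Atp5o and Uqcrq in 5, Cox7b in 6, Cyc1 in 8 and Cox6a1 in 14. In the authors' deposited table, which holds 79 of the genes among 13999, 21 were higher and 0 lower at an adjusted p under 0.05. There 7.85% of all genes were higher, and the 13 genes called here were all among the 21. That comparison comes from the same study, so it is not independent of the calls made here.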

How the data were processed

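Per the labels' protocols, total RNA was depleted of ribosomal RNA, primed at random and read from both ends. The authors deposited estimated counts per Ensembl gene without normalization, and log2 fold changes and adjusted p-values of their own comparison. DRAGEN is named in the submitters' processing notes, while version, role, genome build and strand handling are not given in these sources. Of the nonzero estimated counts, 71.0 to 72.1% per library were exactly whole. In 34 tested subunit genes, 5 of them called (Ndufs3, Cox5a, Cox5b, Atp5b, Atp5o), some were not, so reads shared with copies or overlapping genes are uncertain.

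Identical repeated rows (287) were dropped. Rounded counts entered edgeR 4.0.16 (R 4.3.3), where filterByExpr kept 15135 genes. With TMM factors, glmQLFit and glmQLFTest compared the 11 libraries without covariates, two-sided, with Benjamini-Hochberg adjustment over all genes. Alternatives used DESeq2 1.42.0, limma 3.58.1, other scalings and filters, and fits without single libraries. Lengths and GC content came from GENCODE M21, which may differ from the authors' annotation. Intervals were not computed; the limit of 3 counts covers counting error only. Tests were checked on simulated data.

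The members and lists were chosen with earlier results of these data known. Named genes are the called members, in each complex the 3 of lowest p, the highest per kb, the core and subunit c genes and tissue-linked isoforms, and called members of related lists. Mdh2, Fh1, Lrpprc, Esrra, Gabpa, Nrf1, Ppargc1a, Ndufs7, Ndufb10, Sdhd, Uqcr11, Cox7a2 and Cox5b-ps were named after their values were seen. Atp5if1, the ATP synthase inhibitor, was not found under that symbol.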

Additional observations from a re-analysis of the deposited data

Results flagged for a closer look

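Of 104 groups of libraries checked, 3 held a library far from the others, where chance gives about 1 in 20. With CYR61, replicate 4 had 48.4 CPM of Cyc1 and the nearest library 46.5 CPM; all 4 lay above the highest control. With CYR61, replicate 1 had 47.7 CPM of Esrra and the nearest library 40.1 CPM; this is the library with the fewest mitochondrially encoded reads. In control, replicate 1 had 33.9 CPM of Cox7b and the nearest library 39.5 CPM; it is the smallest library, with 5 of 76 subunit genes above the control mean.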

How the results depend on the processing

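In none of the 24 alternatives was a subunit gene called lower. The number called higher, 13, was 5 with library size alone, under which the log2 ratio of the complex V sum was 0.0622 in place of 0.11. The number called was 8 without CYR61 replicates 1 and 4, of which 7 were among the 13, and 6 to 17 when 1 library was left out. Genes of the whole table called higher numbered 620 without CYR61 replicates 1 and 4, and 583 to 903 when 1 library was left out. The count over all genes, 1204, ran from 788 (without CYR61 replicate 2) to 1372 (without control replicate 7). Over the leave-one-out fits the log2 ratio of the sums ran from 0.05 to 0.09 for complex I, 0.10 to 0.13 for II, 0.07 to 0.10 for III, 0.08 to 0.11 for IV and 0.09 to 0.12 for V. The shares, as CYR61 minus control in percentage points, ran from 2.82 to 4.55 for Atp5g3, -2.36 to -1.71 for Atp5g1, -2.35 to -0.995 for Atp5g2, 0.648 to 2.16 for Cox7a2, -2.12 to -0.671 for Cox7a2l and -0.0723 to 0.0228 for Cox7a1. Without CYR61 replicate 1 the first 5 were 4.55, -2.21, -2.35, 2.16 and -2.12, each with an exact permutation adjusted p of 0.035. The shares of genes for the same subunit are tied together, so these are not separate results.

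Genes that were not called changed sign in some alternatives. Leaving out 1 library gave log2 fold changes of -0.0461 to 0.0031 for Uqcrh, -0.0902 to 0.106 for Cox7a1, -0.0403 to 0.012 for Atp5g1 and -0.0808 to 0.0119 for Atp5g2. Library size alone gave -0.0028 for Cox4i1 and -0.0346 for Cox7a1, and the correction for GC content and length gave -0.0145 for Cox4i1, -0.0625 for Cox7a1 and 0.0045 for Atp5g1. The cause of these changes was not tested.

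With the replicate number as a block, on replicates 1 to 4 of each group, 15 subunit genes were called. Of these, 11 were among the 13. On the same 8 libraries without the block, 17 were called. Genes of the whole table called higher numbered 811 under the block, against 806 on all 11 libraries. Without the block, on the same 8 libraries, they were more than under it. Whether the higher numbers of subunit genes are particular to these genes was not tested. Same-numbered libraries had correlations of -0.03 to 0.03 in their deviations from the group means. These values show no strong shared pattern, but they cannot tell whether same-numbered libraries share an animal, a culture or a batch. Under the block the log2 fold change was 0.0519 for Atp5g1 and 0.0155 for Atp5g2, and without it on the same libraries 0.0525 for Atp5g1 and 0.0162 for Atp5g2. Under the block the adjusted p was 0.0608 for Ndufs3, 0.0618 for Cyc1 and 0.0917 for Coa5. Genes under 1 CPM rest on at most 16 counts a library.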
